A study of Rattus norvegicus with 93 samples.

Results

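Cells keep nearly all of their zinc bound, and metallothioneins and zinc transporters set where it sits. This is an account of 6 such genes in rat calvarial defects: the metallothioneins Mt1, Mt2A and Mt3, the zinc exporters Slc30a1 and Slc30a5, and the zinc importer Slc39a14. The genes were chosen by name and found by symbol in the array's annotation, which writes Mt1 as Mt1a. All 6 were among the 15975 genes measured.

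The tissue came from male rats, 12 weeks old at the age the labels give, whose strain is not given in the sources used here. A round defect of 8 mm, which the series calls critical-sized, or of 4 mm was drilled in the skull roof, the dura mater was left in place, and neither defect received any further treatment. The plug of healing tissue was taken at days 1, 3, 5, 7, 10, 14 and 21, and each of the 93 one-colour arrays holds the RNA of 1 defect. In that order of days there were 5, 11, 12, 5, 6, 6 and 6 arrays of 8 mm defects, and 3, 8, 11, 5, 4, 5 and 6 of 4 mm defects. Changes over time are set against day 1, since unoperated bone was not analysed here. Precision is limited by these numbers of arrays.

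Metallothioneins are small proteins rich in cysteine that hold zinc and copper in the cytosol and give them up when oxidised. The zinc-sensing transcription factor MTF1 (gene Mtf1) binds short metal response elements and switches on Mt1, Mt2A and Slc30a1 when zinc is high, while glucocorticoids and the cytokine Il6 raise Mt1 and Mt2A by other routes. Mt3, found as a growth inhibitory factor of brain, is best known from neurons and glia and responds little to metals. Slc30 proteins move zinc out of the cytosol, Slc30a1 across the cell membrane and Slc30a5 into the secretory pathway. Slc39 proteins move it in, and Slc39a14 also carries iron and manganese and is induced by Il6 in mouse liver.

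The 3 metallothionein genes lie side by side. In the RefSeq annotation of the GRCr8 assembly, which is used here for names and sequences and not as the build of the array, Mt1 is at chr19:10831959-10832975, Mt2A at chr19:10837934-10838708 and Mt3 at chr19:10854676-10856080. The whole stretch is 24.1 kb long, and all 3 are on the minus strand. Slc30a1 is at chr13:106022019-106025892, Slc30a5 at chr2:33679800-33710025 and Slc39a14 at chr15:51786517-51833260. The 250 bases before the start of Mt1 (chr19:10832976-10833225), Mt2A (chr19:10838709-10838958), Mt3 (chr19:10856081-10856330), all read on the minus strand, and Slc30a1 (chr13:106021769-106022018, plus strand) are shown because these are the members in which the known metal switch can be looked for. Capitals mark the core of the metal response element, searched as TGCGCNC or TGCACNC on both strands.
Mt1: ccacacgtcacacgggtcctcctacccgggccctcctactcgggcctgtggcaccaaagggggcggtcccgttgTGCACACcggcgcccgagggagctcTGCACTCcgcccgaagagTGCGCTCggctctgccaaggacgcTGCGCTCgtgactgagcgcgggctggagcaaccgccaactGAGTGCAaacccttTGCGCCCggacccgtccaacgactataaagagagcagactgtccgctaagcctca
Mt2A: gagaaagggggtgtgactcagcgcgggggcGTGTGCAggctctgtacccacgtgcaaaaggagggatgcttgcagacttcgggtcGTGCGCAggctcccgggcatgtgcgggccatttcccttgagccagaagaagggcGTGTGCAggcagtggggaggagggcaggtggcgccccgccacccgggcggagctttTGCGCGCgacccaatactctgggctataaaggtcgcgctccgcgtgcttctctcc
Mt3: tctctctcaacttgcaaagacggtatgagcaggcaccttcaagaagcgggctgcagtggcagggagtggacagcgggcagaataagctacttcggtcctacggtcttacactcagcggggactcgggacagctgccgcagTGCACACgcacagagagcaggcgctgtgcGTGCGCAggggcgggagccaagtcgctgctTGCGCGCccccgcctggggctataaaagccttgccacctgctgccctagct
Slc30a1: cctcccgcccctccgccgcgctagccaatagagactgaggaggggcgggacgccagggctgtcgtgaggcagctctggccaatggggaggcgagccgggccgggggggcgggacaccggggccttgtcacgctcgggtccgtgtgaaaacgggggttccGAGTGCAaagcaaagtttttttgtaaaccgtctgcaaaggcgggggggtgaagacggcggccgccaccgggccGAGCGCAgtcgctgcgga

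The Mt1 promoter held 6 of these cores, Mt2A 4, Mt3 3 and Slc30a1 2. Slc30a5 also had 2, which overlap each other on opposite strands. Its window, chr2:33709899-33710148 on the minus strand, lies partly within the gene as annotated above. Of 33469 promoters of the same length, 20.6% held at least 1 core, 4.9% at least 2, 1.17% at least 3, 0.266% at least 4 and 0.0269% at least 6. The 3 metallothionein promoters each had a TATA box (TATAAA, in 12.9% of promoters on either strand) beginning 32, 31 and 31 bases before the start in Mt1, Mt2A and Mt3, whereas the Slc30a1 and Slc30a5 windows had none. A core of the antioxidant response element (TGACNNNGC, in 10.1% of promoters) was found once each in Mt1, Mt2A, Slc30a1 and Slc30a5 and not in Mt3. That of Slc30a5 lies in the part of its window within the annotated gene. These are letter matches only. All 3 metallothionein promoters therefore held metal response element cores and a TATA box.

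All values are log2 of a deposited ratio whose median over the 93 arrays is 1 for each member, so they compare arrays and not genes. The lowest ratio in the table is 0.01, written here as the floor of -6.64, and 13.42% of all values stood there. That share differed with the day. In 8 mm defects it averaged 10.28% of an array's values at day 1, 10.21% at day 5 and 11.88% at day 7. For days 10, 14 and 21 the averages were 17.5%, 16.27% and 21.43%. In 4 mm defects they were 10.15%, 10.36% and 13.89% at days 1, 5 and 7, then 17.59%, 19.77% and 17.26%. On average the share was thus higher from day 7 on than up to day 5 in both sizes. Floor values are therefore confounded with the day, and comparisons of day 7 or later with earlier days span this step. Mt1, Mt2A and Slc30a5 were above the floor on every array, Mt3 and Slc30a1 stood at it on 1 array each, and the probe used for Slc39a14 did so on 12. On 7 arrays the genes never at the floor had a median log2 level under -0.7. No 2 arrays were identical. The p-values measure the spread between these arrays, pooled over the 14 groups of day and size.

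Of the 6 members, 4 changed over the days in 8 mm defects and 4 in 4 mm defects by limma's F test, and in each size these were Mt1, Mt2A, Mt3 and Slc39a14. For Slc39a14 the call was lost on 1 of its other 3 probes in each size, on A_44_P929840 in 8 mm (limma adjusted p = 0.742) and on A_44_P809536 in 4 mm defects (0.14). The same test called 40.2% of all genes in 8 mm and 33.5% in 4 mm defects, so a change with time was common on these arrays. Day 3 differed from day 1 for 2 members (6.44% of all genes), and day 5 for 3 members (19%). For day 7 the count was 3 (21.4%) and for day 10 it was 3 (16.6%). It was 5 for day 14 (21%) and 4 for day 21 (26.2%). These comparisons share the 8 arrays of day 1. Between the sizes, 1 member was called at day 7 (0.369% of all genes) and 1 at day 21 (2.4%). None was called at day 10 (0.263%), at day 14 (1.63%) or averaged over the days (0.413%), and at days 1, 3 and 5 limma called 0% of all genes. The interaction of size and day was called for 0 of 6 members and 0.538% of all genes.

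Mt1 and Mt2A were at their highest at day 1 and fell through day 7 in defects of both sizes. At day 1, Mt1 was 1.46, 2.71, 2.76, 3.08 and 3.74 in 8 mm defects and 1.86, 2.75 and 2.96 in 4 mm defects. At day 5 its lowest, median and highest values were -0.53, 0.56 and 1.32 in 8 mm defects, against -0.88, 0.88 and 1.72 in 4 mm defects. By day 7 it was -1.96, -1.55, -1.34, -1.02 and -0.32 in 8 mm defects and -0.98, -0.95, -0.65, -0.63 and -0.34 in 4 mm defects. Every array of day 7 thus lay below every array of day 1. The same held for Mt1 and Mt2A at days 10, 14 and 21. Such a gap below day 1 was found for 0.501% of all genes on day 7, for 0.25% on day 10, for 0.432% on day 14 and for 0.62% on day 21.

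Against day 1, with both sizes weighted equally, Mt1 fell by 2.10 on the log2 scale at day 5 (SE 0.28, limma adjusted p = 4.17e-09). Its difference was -3.61 ± 0.32 on day 7 (1.35e-15), -3.48 ± 0.32 on day 10, -4.06 ± 0.31 on day 14 and -4.30 ± 0.31 on day 21 (5.32e-20). The day 21 difference is 19.7-fold, and by p it ranked 10 of 15975 genes. Mt1 was also lower at day 5 than at day 3 (-1.20 ± 0.21, limma adjusted p = 4.19e-05; 3.71% of all genes called) and at day 7 than at day 5 (-1.51 ± 0.25, 2.75e-05; 10.5% called). Among days 7, 10, 14 and 21 no pair passed for Mt1 or Mt2A, while the share of all genes called was 0.213% for day 10 minus day 7, 2.82% for day 14 minus day 7, 16.4% for day 21 minus day 7, 1.03% for day 14 minus day 10, 6.22% for day 21 minus day 10 and 1.52% for day 21 minus day 14. For Mt1 the largest of these differences, day 21 minus day 10, was -0.82 ± 0.29 (limma adjusted p = 0.068). At day 3 the difference from day 1 was -0.90 ± 0.29 (limma adjusted p = 0.040, lower than the day 1 mean on 19 of 19 arrays). That call at day 3 held in 7 of 12 alternatives, and it ended on leaving out replicate 17 or 18 of 4 mm day 1, or replicate 12, 13, 14 or 16 of 8 mm day 1, which gave -0.90 to -0.77.

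Mt2A, the neighbour of Mt1 with the same cytosolic role, ran beside it. At day 1 it was 1.90, 3.15, 3.17, 3.56 and 3.89 in 8 mm defects and 2.35, 3.37 and 3.48 in 4 mm defects. At day 7 it was -2.16, -0.89, -0.83, -0.80 and -0.65 in 8 mm defects and -3.59, -1.94, -0.88, -0.62 and -0.48 in 4 mm defects. Again no array of day 7 reached any of day 1. Mt2A fell by 2.47 at day 5 (SE 0.34, limma adjusted p = 1.75e-08). The difference was -4.39 ± 0.39 on day 7, -4.16 ± 0.40 on day 10, -4.07 ± 0.39 on day 14 and -4.70 ± 0.38 on day 21 (1.97e-17), the last being 26.0-fold. At day 3 its difference of -1.02 ± 0.35 missed the threshold (limma adjusted p = 0.071, lower on 19 of 19 arrays), but was past it without replicate 11 of 8 mm day 1 (-1.17). Within an array, Mt1 minus Mt2A had group means between -0.67 and 0.79, so both moved by similar amounts. Both are small transcripts of near-identical families. How far each probe reads the other gene was not tested, as probe sequences are not used here.

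**Figure D1:**
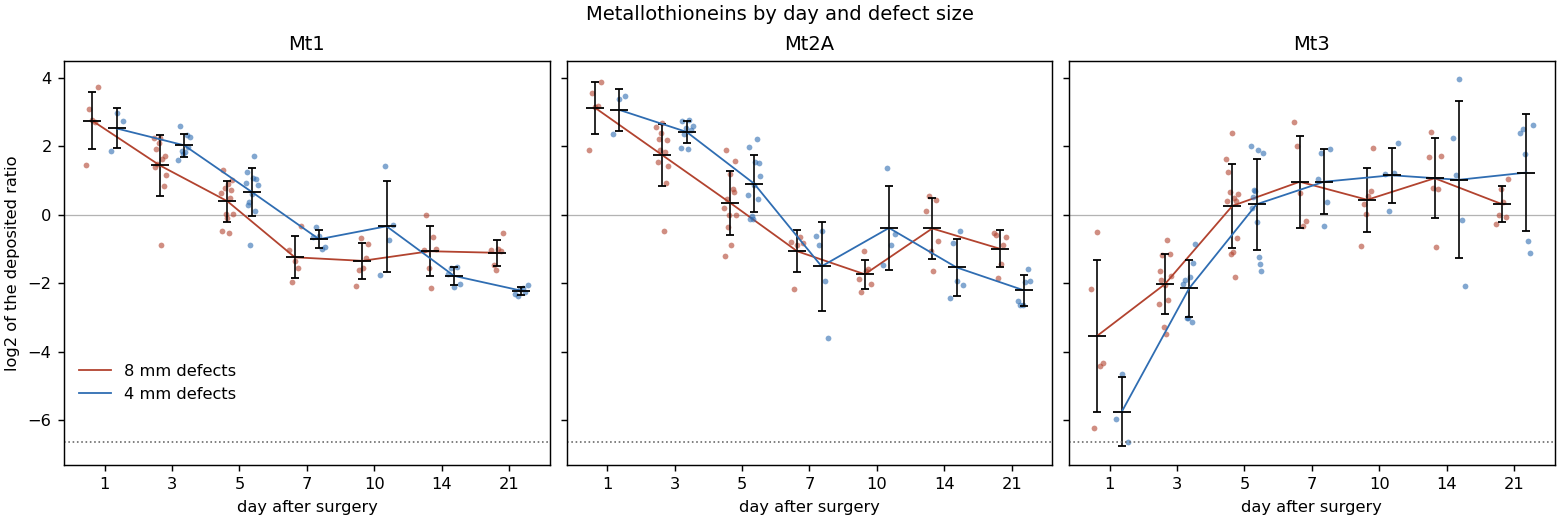
Log2 of the deposited ratio of Mt1, Mt2A and Mt3 (y axis) by day after surgery (x axis). Each point is 1 array, red for 8 mm and blue for 4 mm defects, black bars give the mean ± SD of a group, lines join the means, and the dotted line is the floor at -6.64. Mt1 and Mt2A lie at means of 2.75 and 3.13 at day 1 in 8 mm defects and below 0 from day 7 in both sizes, while Mt3 runs the other way.

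In RNA of whole tissue, fewer cells of a type and less RNA per cell cannot be told apart. On average, markers of skeletal muscle, of neutrophils and of epidermis were highest at day 1 in both sizes, as Mt1 and Mt2A were. The epidermis score, the mean of 9 markers on an array, averaged 0.75 ± 2.05 (SD, n = 5) in 8 mm defects at day 1 and -0.24 ± 0.85 (n = 6) at day 21. In 4 mm defects it averaged 1.87 ± 1.51 (n = 3) and -1.40 ± 1.34 (n = 6). Of 11 skeletal muscle markers, 11 were lower at day 21 than at day 1, as were 12.8% of all genes, and 13.4% were higher. Their summed log2 ratios ranged from -36.87 to -24.37 on the 8 mm arrays and from -35.29 to -13.71 on the 4 mm arrays of day 21, against -14.64 to 55.36 on the 8 mm and 7.18 to 75.11 on the 4 mm arrays of day 1. No muscle marker stood at the floor on every array of any of these groups. With the muscle score, the mean of these markers on an array, as a covariate in limma, day 21 minus day 1 was -4.06 ± 0.37 for Mt1 (adjusted p = 6.24e-15) and -4.29 ± 0.45 for Mt2A (2.39e-12), against -4.30 and -4.70 without it. Of 13 neutrophil markers, 7 were lower at day 5, against 1.69% of all genes (17.3% were higher), and 6 at day 21. Their sums lay between 9.02 and 28.33 on the 8 mm and 9.60 and 22.29 on the 4 mm arrays of day 1, and at day 5 between -26.01 and 1.77 in 8 mm and -26.39 and -8.25 in 4 mm defects. None of these was at the floor throughout a group of day 1 or day 5. The neutrophil score, the mean of these markers on an array, averaged -1.08 at day 5, -0.92 at day 7 and -0.29 at day 21 in 8 mm defects. In 4 mm defects it averaged -1.29, -1.17 and -1.48. The score thus fell up to day 5 but not from day 5 to day 7, when Mt1 and Mt2A fell further. The parts of skeletal muscle, neutrophils and epidermis in the fall of Mt1 and Mt2A were not tested.

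Between the sizes, Mt1 and Mt2A stood lower in 8 mm than in 4 mm defects at day 10 and higher at days 14 and 21, but none of these differences passed the threshold. At day 21 Mt1 was -1.60, -1.04 and -0.53 (lowest, median, highest) in 8 mm defects, against -2.36, -2.22 and -2.06 in 4 mm defects. The 2 groups did not overlap, which was true of 0.438% of all genes in that direction. The difference was 1.11 ± 0.38 (limma adjusted p = 0.103, higher than the 4 mm mean on 6 of 6 arrays). For Mt2A the values were -1.84, -0.77 and -0.54 in 8 mm defects and -2.64, -2.23 and -1.58 in 4 mm defects, which overlap, and the difference was 1.22 ± 0.47 (limma adjusted p = 0.158, 6 of 6 arrays). Over 13 alternatives the adjusted p ranged from 0.00365 to 0.319 for Mt1 and from 0.0317 to 0.494 for Mt2A, and it passed for both with arrays centred on their own median level (1.27 ± 0.28 and 1.38 ± 0.40) and for Mt1 without the 7 arrays of low level.

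At day 14, Mt1 was -2.15, -1.02 and 0.00 (lowest, median, highest) in 8 mm defects and -2.10, -2.01, -1.72, -1.55 and -1.53 in 4 mm defects, a difference of 0.72 ± 0.40 (limma adjusted p = 0.488) that was -0.16 after quantile normalization. Mt2A at day 14 differed by 1.14 ± 0.49 (limma adjusted p = 0.294). Day 10 had the opposite sign. Mt1 was -2.09, -1.42 and -0.68 in 8 mm defects, against -1.76, -0.72, -0.29 and 1.44 in 4 mm defects, and the difference was -1.01 ± 0.43 (limma adjusted p = 0.422). It was -0.42 without replicate 11, the highest 4 mm array of that day, and -1.49 without replicate 10, the lowest and one of those of low level. The difference for Mt2A at day 10 was -1.35 ± 0.53 (limma adjusted p = 0.351), and -0.77 without the same replicate 11. Accordingly the interaction of size and day had a limma adjusted p of 0.116 for Mt1 and 0.0865 for Mt2A. Centring gave 0.0066 and 0.011, leaving out the arrays of low level gave 0.0245 and 0.0465, and for Mt1 leaving out replicate 10 of 4 mm day 10 gave 0.0448.

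**Figure D2:**
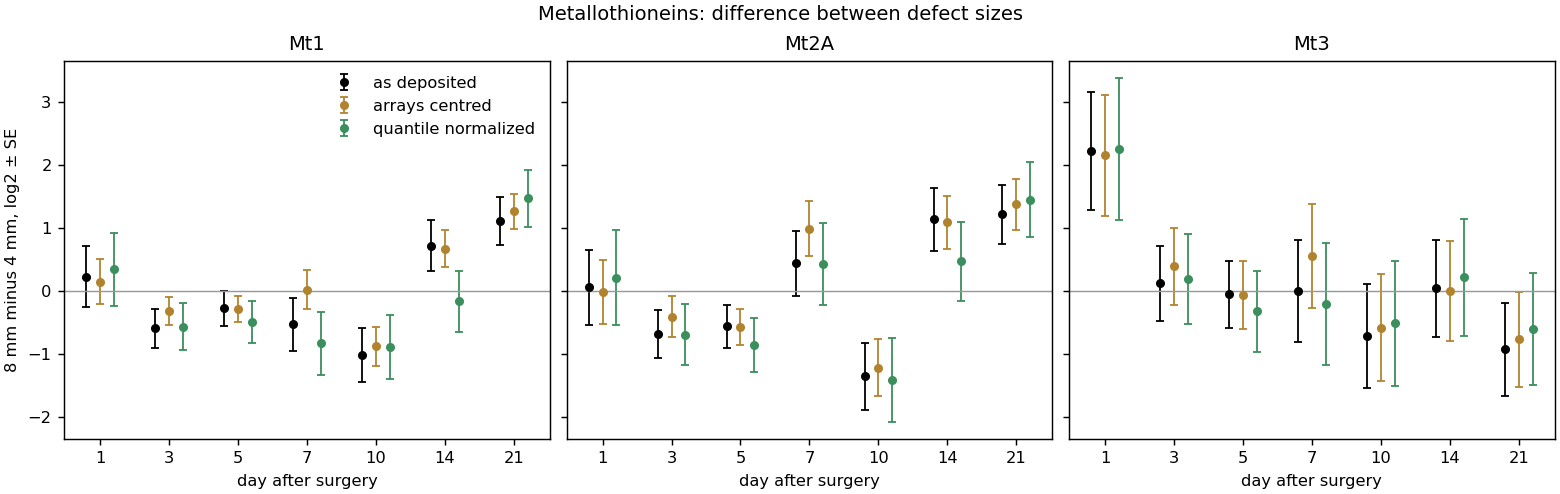
Difference of 8 mm minus 4 mm defects (y axis, log2, bars ± SE from limma) for Mt1, Mt2A and Mt3 by day after surgery (x axis), as deposited, with each array centred and after quantile normalization. For Mt1 and Mt2A the points lie below 0 at day 10 and above 0 at day 21 under all 3 scalings, and at day 14 Mt1 changes sign with quantile normalization.

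Mt3 ran opposite to its neighbours. At day 1 it was -6.23, -4.42, -4.34, -2.16 and -0.51 in 8 mm defects and -6.64 (the floor), -5.97 and -4.66 in 4 mm defects. At day 3 its lowest, median and highest values were -3.48, -1.91 and -0.75 in 8 mm defects and -3.14, -1.97 and -0.84 in 4 mm defects. At day 7 it was -0.33, -0.17, 0.63, 2 and 2.72 in 8 mm defects and -0.32, 0.38, 1.04, 1.82 and 1.93 in 4 mm defects. All arrays of day 7 lay above all of day 1, as was true of 3.62% of all genes in that direction. Mt3 rose against day 1 by 2.56 ± 0.55 at day 3 (limma adjusted p = 0.00066), 4.93 ± 0.54 at day 5 (5.30e-12) and 5.61 ± 0.62 at day 7 (9.61e-12). Later differences were 5.45 ± 0.62 on day 10, 5.69 ± 0.61 on day 14 and 5.42 ± 0.59 on day 21 (9.69e-12). From day 5 to day 21 no pair of days passed for Mt3, while 23.7% of all genes were called for day 10 minus day 5, 30.5% for day 14 minus day 5 and 41.6% for day 21 minus day 5.

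The size of this rise depended on the lowest values. With ratios under 0.25 raised to 0.25, the day 3 difference was 0.14 (limma adjusted p = 0.922) and those of days 5 to 21 lay between 2.14 and 2.91. In 12 of 12 alternatives Mt3 was called higher at days 5, 7, 10, 14 and 21 than at day 1. Within an array, Mt1 minus Mt3 does not depend on how the array was scaled. Its group mean was 6.28 ± 2.71 (SD, n = 5) at day 1 and -1.42 ± 0.56 (n = 6) at day 21 in 8 mm defects. In 4 mm defects it was 8.29 ± 0.97 (n = 3) at day 1 and -3.45 ± 1.74 (n = 6) at day 21, with intermediate means at day 5 of 0.14 ± 1.43 (n = 12) in 8 mm and 0.36 ± 1.55 (n = 11) in 4 mm defects. The difference of Mt1 and Mt3 on an array was thus smaller on every array of day 7 than on any array of day 1.

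No difference of Mt3 between the sizes passed. The one furthest from 0, 2.23 ± 0.93 at day 1, had a limma adjusted p of 1 and was 1.47 to 2.90 without single arrays, and the interaction had 0.676. At day 21 it was -0.28, 0.19 and 1.06 (lowest, median, highest) in 8 mm defects, against -1.11, 2.08 and 2.63 in 4 mm defects, a difference of -0.93 ± 0.74 (limma adjusted p = 0.587).

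Because Mt3 is a brain gene, markers of brain were followed beside it. On 8 arrays the brain score, the mean of 11 markers, exceeded 2, and on these Mt3 lay between 2 and 3.96. Of these, 3 were of 4 mm day 21 (replicates 10, 11 and 15) and 2 of 8 mm day 7 (replicates 10 and 12), with 1 each from the 8 mm groups of days 5 and 14 and the 4 mm group of day 14. Without these arrays the difference between sizes at day 21 was 0.34, and with the brain score as a covariate 0.69, both of opposite sign to the value above and neither called. The rise over time was present in both forms: day 21 minus day 1 was 4.78 ± 0.59 without the 8 arrays (limma adjusted p = 1.17e-09) and 4.41 ± 0.54 with the covariate (3.95e-10). Of the 11 brain markers, 1 was higher at day 5 than at day 1 (17.3% of all genes), with a list median of 0.47 against 0.34 for all genes. At day 21, 4 were higher (13.4% of all genes). In 8 mm defects the brain score averaged -1.57 ± 0.69 (SD, n = 6) at day 21 and -1.58 ± 1.14 (n = 5) at day 1, while Mt3 averaged 0.31 ± 0.52 and -3.53 ± 2.22. The summed log2 ratios of the brain markers on the arrays of day 21 ran from -31.12 to -10.49 in 8 mm and from -12.67 to 52.88 in 4 mm defects, and on those of day 1 from -25.35 to 4.82 in 8 mm and from -31.49 to -23.49 in 4 mm defects. Aqp4, the water channel of astrocytes, stood at the floor on every 4 mm array of day 1, and no other brain marker did so in these groups. Single values stood there often. In 8 mm defects 27.27% of the brain marker values were at the floor at day 1 and 31.82% at day 21. In 4 mm defects these shares were 30.3% and 7.576%. The brain scores and sums of these groups are thus set in part by the floor. Of 12 osteoblast markers, 5 were higher at day 5 (17.3% of all genes) and 6 at day 21 (13.4%). The parts of brain tissue and of osteoblasts in the rise of Mt3 were not tested.

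Slc30a1, which exports zinc across the cell membrane and shares metal response element cores with Mt1 and Mt2A, showed no change that passed. At day 1 it was -2.08, -1.31, -0.52, 0.19 and 1.29 in 8 mm defects and -0.61, -0.06 and 0.19 in 4 mm defects. At day 7 it was -1.80, -0.29, 0.00, 0.16 and 0.59 in 8 mm defects, against 0.35, 0.75, 0.80, 0.87 and 1.03 in 4 mm defects. At day 21 its lowest, median and highest values were -6.64, -0.41 and 0.54 in 8 mm defects and -1.42, 0.01 and 0.67 in 4 mm defects. The only array at the floor was replicate 11 of 8 mm day 21. The limma adjusted p over the days was 0.134 in 8 mm and 0.477 in 4 mm defects, the interaction had 0.596, and none of 10 or 11 alternatives run for each called it.

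Slc30a5, which loads zinc into the secretory pathway, differed between sizes at day 7. It was -4.21, -3.55, -0.08, 0.09 and 0.24 in 8 mm defects, against 0.76, 0.94, 0.97, 1.03 and 1.27 in 4 mm defects. The groups did not overlap, with the difference carried mostly by 2 low 8 mm arrays, and 7.98% of all genes also lay wholly lower in 8 mm defects that day. Those low arrays, replicates 13 and 15, had 17.15% and 11.78% of their values at the floor. The other 8 mm arrays of day 7 had 10.06%, 10.25% and 10.16%, and the 4 mm arrays 11.93% to 16.73%. Whether this split bears on the Slc30a5 difference was not tested. The difference was -2.50 ± 0.59 (limma adjusted p = 0.0239, lower on 5 of 5 arrays), while the median of all genes was -0.40. The other 2 probes of the gene gave -1.25 ± 0.52 (limma adjusted p = 0.26) and -0.93 ± 0.44 (0.306). The call ended on leaving out replicate 10, 12, 14 or 15 of 4 mm day 7 or replicate 13 or 15 of 8 mm day 7, with differences of -2.56 to -1.82, and over 14 alternatives its adjusted p ranged from 0.000327 to 0.306.

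Over time Slc30a5 missed the threshold in 8 mm (limma adjusted p = 0.052) and in 4 mm defects (0.0955). Of 13 alternatives each, 4 passed in 8 mm defects (lowest adjusted p 0.00392) and 5 in 4 mm defects (lowest 0.00668). The 8 mm test also passed without any of 7 single arrays (replicates 12 and 16 of 8 mm day 1, 10, 12 and 14 of 8 mm day 7, 13 of 4 mm day 1 and 10 of 4 mm day 10; F 2.69 to 3.47, against 2.65). It was higher at day 14 than at day 1 by 1.21 ± 0.44 (limma adjusted p = 0.0383, 11 of 11 arrays above the day 1 mean). The other probes gave 0.25 and 0.66 there, neither called. With centring the difference was 0.74 (limma adjusted p = 0.091), and without the arrays of low level it was 0.73 (0.232). The lowest day 1 values, -2.554 in 8 mm and -2.135 in 4 mm defects, were on arrays of low level. Of 13 alternatives, 6 kept the call at day 14. This call too ended without replicate 11, 13 or 14 of 8 mm day 1, 13 or 18 of 4 mm day 1, or 16, 18 or 20 of 4 mm day 14, with values of 0.94 to 1.25.

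Slc39a14, the importer that also carries iron and manganese, had 4 probes, and these did not give the same course. The probe with the widest spread, which stands for the gene in the fit, was 0.39, 0.53, 1.40, 1.57 and 2.16 in 8 mm defects and -0.79, 1.26 and 1.42 in 4 mm defects at day 1. At day 14 its lowest, median and highest values were -6.64, -0.40 and 0.54 in 8 mm defects, and it was -6.64, -6.64, -1.21, 0.04 and 0.07 in 4 mm defects. At day 21 it stood at the floor on 6 of 6 arrays of 8 mm defects, and in 4 mm defects its lowest, median and highest values were -6.64, -3.36 and 0.88. Floor values carry no order, and the size of any difference that includes them is set in part by the floor.

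Day 21 minus day 1 for this probe was -5.90 ± 0.79 (limma adjusted p = 5.93e-09, below the day 1 mean on 12 of 12 arrays). Probe A_44_P375185 gave -4.13 ± 0.56 (1.30e-08) and A_44_P809536 gave -2.49 ± 0.60 (limma adjusted p = 0.000863), whereas A_44_P929840 gave -0.74 ± 0.60, which did not pass (0.384). Slc39a14 therefore fell by day 21 on 3 of its 4 probes. At day 14 the difference from day 1 was -2.99 ± 0.80 (limma adjusted p = 0.00375) on the probe used and -1.63 ± 0.57 (0.0318) on A_44_P375185, while the other 2 probes gave -1.25 and -1.30 without passing. Differences of days 3, 5, 7 and 10 from day 1 did not pass for this probe.

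The sizes differed at day 21 on 1 probe only. There the probe used for Slc39a14 gave -3.32 ± 0.97 (limma adjusted p = 0.0463, 6 of 6 arrays below the 4 mm mean), and the other 3 gave 0.45, -1.46 and 0.25 with none called. Over 16 alternatives, the other probes included, 5 kept the call. At day 14 the sign was the other way (1.62 ± 1.02, limma adjusted p = 0.574), with 0.67 without either replicate 17 or 20 of 4 mm defects and up to 2.35 without replicate 15. The interaction of size and day did not pass (0.31).

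**Figure D3:**
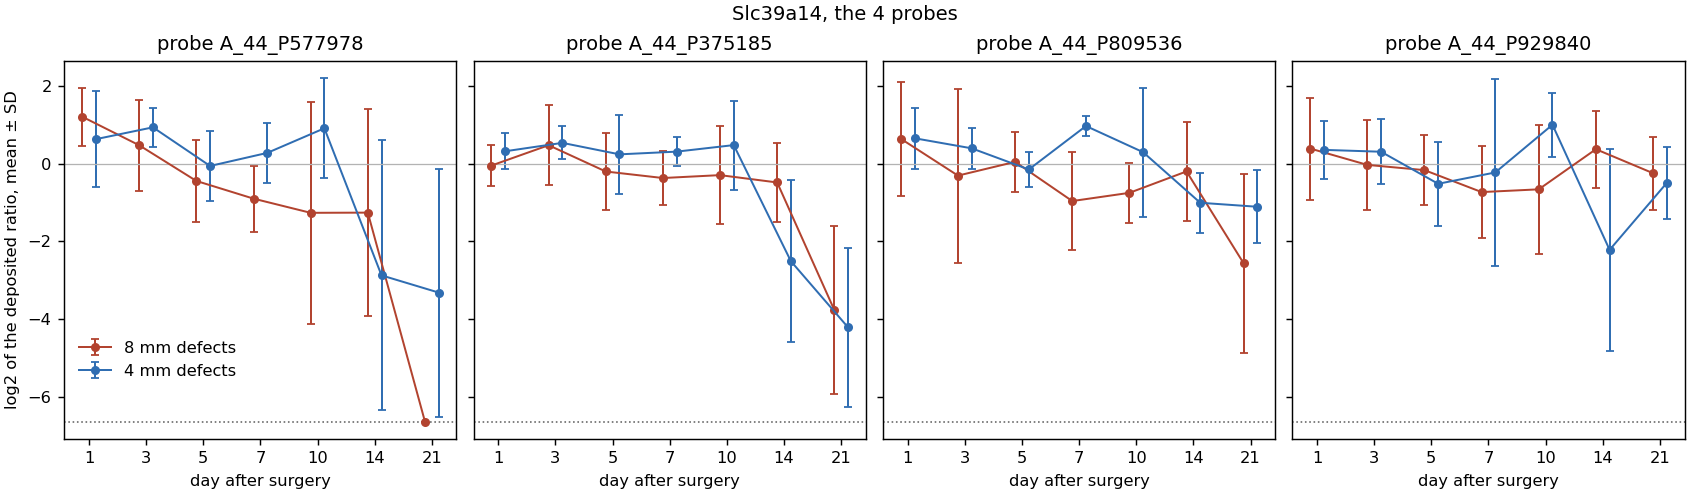
Mean ± SD of log2 of the deposited ratio (y axis) by day after surgery (x axis) for the 4 probes of Slc39a14, red for 8 mm and blue for 4 mm defects, with the floor dotted. The left panel is the probe used in the fit. Its 8 mm mean is at the floor of -6.64 at day 21, while the mean of A_44_P929840 that day is -0.25 in 8 mm and -0.50 in 4 mm defects.

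**Figure D4:**
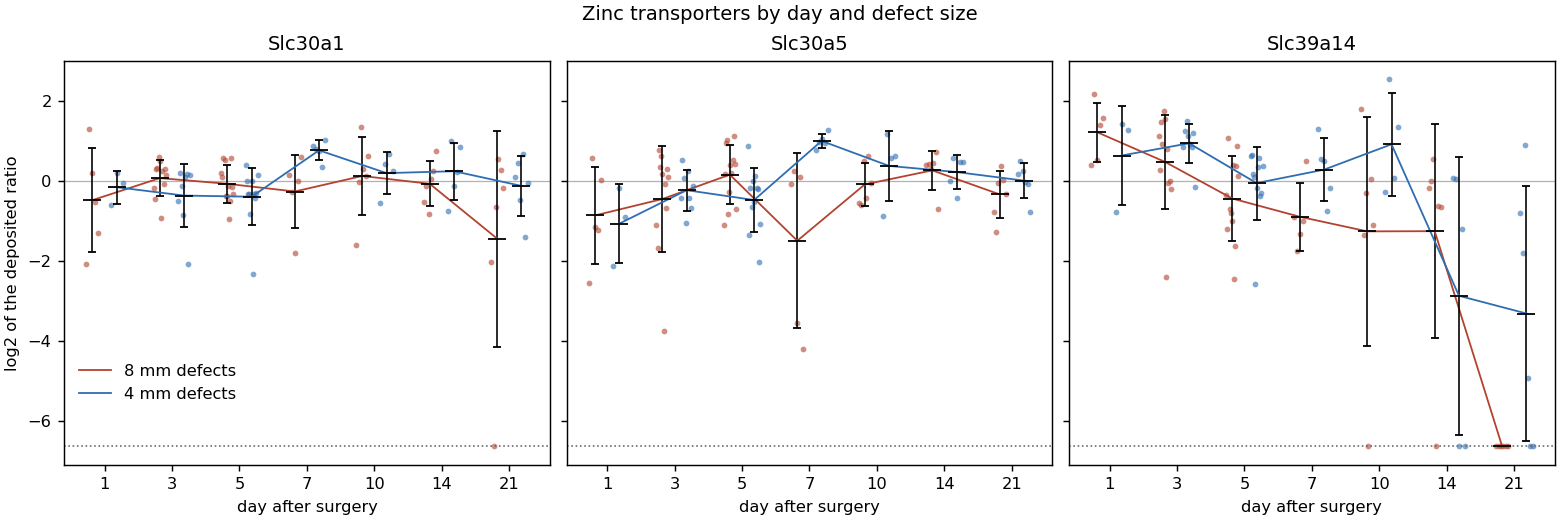
Log2 of the deposited ratio of Slc30a1, Slc30a5 and Slc39a14 (y axis) by day after surgery (x axis). Points are arrays, red for 8 mm and blue for 4 mm defects, black bars are mean ± SD, and the dotted line is the floor. Slc30a5 separates the sizes at day 7 (means of -1.50 and 1.00), and Slc39a14 reaches the floor on many arrays of days 14 and 21.

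The rest of the 2 transporter families was read from lists of exporters and importers. Over all genes, the F test called 40.2% in 8 mm and 33.5% in 4 mm defects. Of 8 other Slc30 exporters, 2 changed over the days in 8 mm defects by the F test, Slc30a7 (limma adjusted p = 0.000463) and Slc30a4 (0.000914), and 1 in 4 mm defects, Slc30a6 (0.0238). Slc30a7 and Slc30a4 are transporters of the Golgi and of vesicles, and Slc30a6 is the partner of Slc30a5. Slc30a4 averaged 0.38 ± 0.63 (SD, n = 5) in 8 mm and 1.06 ± 0.15 (n = 5) in 4 mm defects at day 7, against -1.55 ± 1.90 (n = 5) and -0.62 ± 0.61 (n = 3) at day 1. Slc30a7 in 8 mm defects averaged -0.04 ± 0.63 (n = 5) at day 1 and -2.097 ± 2.541 (n = 6) at day 21. Slc30a6 in 4 mm defects averaged 0.55 ± 0.34 (n = 5) at day 7 and -1.395 ± 2.601 (n = 6) at day 21. Each of these day 21 groups had 1 array at the floor. At day 21 minus day 1 the list of exporters had a median of 0.05, with 1 higher and 0 lower. Over all genes the median was -0.18, with 13.4% higher and 12.8% lower.

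Of 13 other Slc39 importers 11 were measured, and 6 changed over the days in 8 mm defects (Slc39a4, Slc39a13, Slc39a1, Slc39a11, Slc39a7 and Slc39a3) and 5 in 4 mm defects (Slc39a11, Slc39a4, Slc39a1, Slc39a13 and Slc39a8). The shares of all genes called by that test were 40.2% in 8 mm and 33.5% in 4 mm defects. Between day 21 and day 1, 2 importers were higher (13.4% of all genes) and 3 lower (12.8%), with a median of -1.74. Slc39a4, the importer by which the gut takes up dietary zinc, rose by 2.06 ± 0.34 at day 21 (limma adjusted p = 1.45e-06). It averaged 1.73 ± 0.99 (SD, n = 6) in 8 mm and 0.97 ± 1.25 (n = 6) in 4 mm defects at day 21, against -0.78 ± 0.74 (n = 5) and -0.65 ± 0.34 (n = 3) at day 1. The other riser was Slc39a3 (0.78 ± 0.29, limma adjusted p = 0.0325).

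Slc39a1, a widely expressed importer of the cell membrane, fell by 4.80 (SE 0.78, limma adjusted p = 1.17e-06), with 3 of 6 arrays at the floor in each size at day 21. Slc39a8, the closest relative of Slc39a14 in sequence, fell by 3.52 (SE 1.05, limma adjusted p = 0.00803), again with floor values at day 21, on 1 of 6 arrays in 8 mm and 3 of 6 in 4 mm defects. Slc39a11 fell by 1.74 (SE 0.51, limma adjusted p = 0.00674). Slc39a13, whose loss in mice disturbs bone and connective tissue, had a day 21 minus day 1 value of -0.90 ± 0.54 (limma adjusted p = 0.215). Its group means in 8 mm defects were -0.31 ± 0.57 (SD, n = 5) at day 7 and -3.54 ± 2.70 (n = 6, of which 2 at the floor) at day 21.

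**Figure D5:**
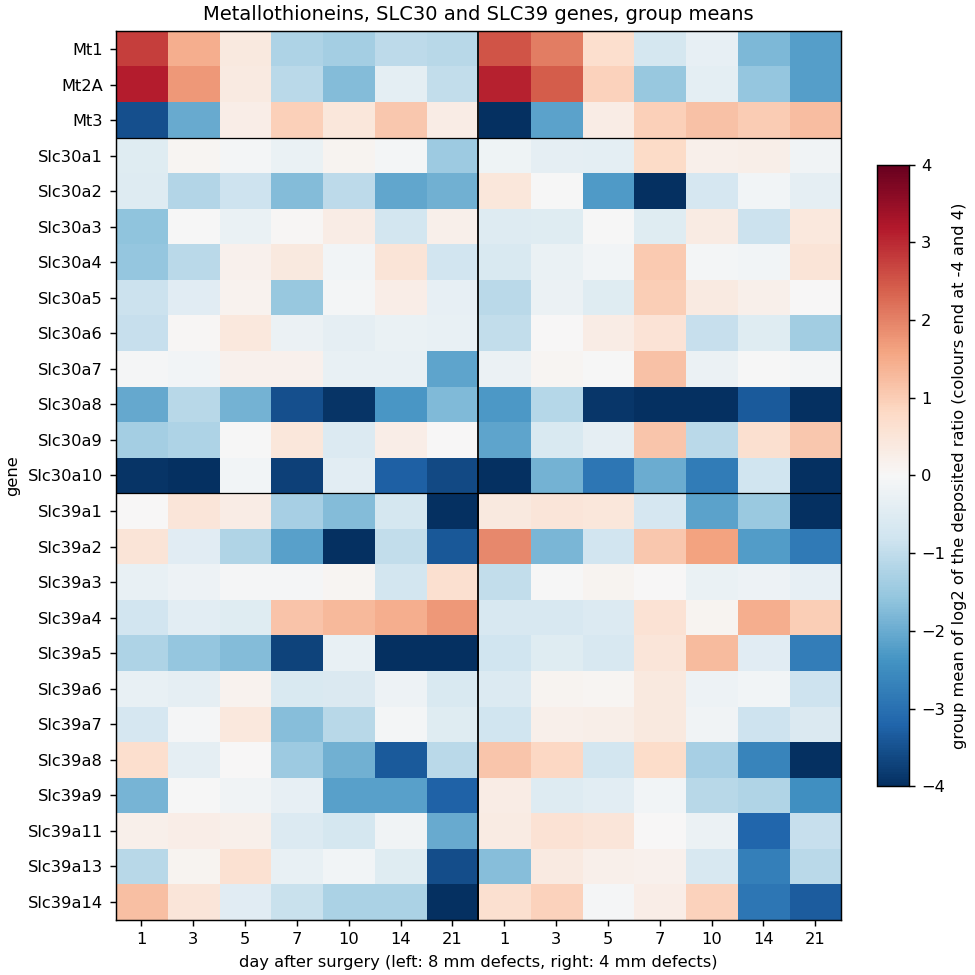
Group means of log2 of the deposited ratio (colour) for the metallothioneins, the Slc30 exporters and the Slc39 importers (rows) by day after surgery (columns, 8 mm defects left and 4 mm defects right). Colours end at -4 and 4. Mt1 and Mt2A turn from red to blue with the days and Mt3 from blue to red, while Slc30a1 stays pale and Slc39a4 turns red.

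Genes of the signals known to act on Mt1 and Mt2A were counted beside them. Of 14 measured genes of the Il6 and STAT3 response, 7 changed over the days in 8 mm and 7 in 4 mm defects. The shares of all genes were 40.2% and 33.5%. At day 21 against day 1, 1 was higher (13.4% of all genes) and 6 were lower (12.8%), with a median of -1.03. Il6 itself, the cytokine, fell by 4.24 at day 21 (SE 0.52, limma adjusted p = 4.47e-10), and Cebpb, a transcription factor of the acute phase, fell by 1.83 (SE 0.36, 4.51e-05). Lbp, which binds bacterial lipopolysaccharide, rose by 2.15 ± 0.40 (limma adjusted p = 1.58e-05).

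Of 13 glucocorticoid response genes, 4 changed over the days in 8 mm defects (40.2% of all genes) and 9 in 4 mm defects (33.5%). At day 21 against day 1, 4 were higher (13.4% of all genes) and 3 lower (12.8%), with a median of 0.52. Fkbp5, a chaperone partner of the glucocorticoid receptor, fell by 2.08 at day 21 (SE 0.37, limma adjusted p = 6.57e-06). Its difference from day 1 at day 5 was 0.51 ± 0.33 (limma adjusted p = 0.323), and the part of glucocorticoids in the fall of Mt1 and Mt2A was not tested. Angptl4, a lipoprotein lipase inhibitor, had a difference of -3.804 (SE 0.44, limma adjusted p = 6.48e-11), whereas Sult1a1, a sulfotransferase, rose by 5.69 ± 0.38 (2.41e-21).

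Among 15 measured genes of other metal handling, mostly of iron and copper, 7 changed over the days in 8 mm and 6 in 4 mm defects. The shares of all genes were 40.2% and 33.5%. At day 21 against day 1, 3 were higher (13.4% of all genes) and 3 lower (12.8%). Hmox1, which breaks down haem, fell by 3.55 (SE 0.36, limma adjusted p = 2.86e-13). The iron exporter Slc40a1 rose by 2.34 ± 0.31 (limma adjusted p = 7.26e-09) and the ferritin light chain Ftl1 by 0.90 ± 0.30 (0.0188). All these comparisons with day 1 share its arrays with those of Mt1 and Mt2A.

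The genes whose 14 group means ran most like each member were named from 5410 genes above the floor on every array, as a description over means that share arrays and days. For Mt1 these were Myc, a growth transcription factor (Pearson r = 0.98), the lactate exporter Slc16a3 (0.97), Prg4 (lubricin, 0.97), the fast muscle troponin Tnni2 (0.96) and the mitochondrial enzyme Shmt2 (0.96). For Mt2A they were Tnni2 (r = 0.97), Prg4 (0.96), the interleukin receptor Il4r (0.95), Myc (0.95) and the angiogenic factor Vegfa (0.95). Mt1 and Mt2A had r = 0.98 with each other, and Mt3 had -0.88 with each. Tnni2 is itself one of the muscle markers above.

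For Mt3 the nearest were Septin4 (r = 0.98), the clock factor Bmal1 (0.97), the receptor phosphatase Ptprd (0.97), Itm2a (0.96) and the microfibril protein Mfap2 (0.96). Of these, Septin4 rose by 4.23 ± 0.31 at day 21 against day 1 and Bmal1 by 1.94 ± 0.28. Both were picked for likeness to Mt3 on these same arrays, so a rise was built into the choice. For Slc39a14 the likeness was lower and followed its fall at day 21. The genes were Fubp1 (r = 0.93), Ddrgk1 (0.93), Irf2 (0.92), Sdc1 (0.92) and Shoc2 (0.92).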

How the data were processed

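RNA of 93 defects was hybridised with Cy3 to Agilent whole-genome rat oligonucleotide arrays, per the labels' protocols. The authors deposited a table of ratios on a linear scale. Its probe medians across arrays equal 1 for 87.75% of 41090 probes, and its lowest value is 0.01. For scanner processing, background correction and scaling the sources used here give nothing, so the scale is known only from these values. The design had assumed log2 values, and log2 of the deposited ratio was taken with no pseudocount. Symbols came from the platform annotation for 20932 probes with 1 symbol, 2316 of them updated through RefSeq accessions to GRCr8 names. Of several probes of a gene (3880 of 15975 genes) the most spread one by interquartile range stands for the gene, and all probes of the members are reported.

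Day and size were read from the titles, and limma 3.58.1 (lmFit and eBayes, R 4.3.3) fitted the 14 groups in one model. Two-sided tests of each comparison were Benjamini-Hochberg adjusted across 15975 genes and called under 0.05. The code was tested on simulated data. Named were the members, the zinc transporters past the F test, up to 3 genes of each other list by the smallest p in 8 mm defects, and the 5 genes most like each metallothionein and Slc39a14. Members and lists were chosen with earlier results of these data known. Promoters are RefSeq sequences on GRCr8, with an entry for 5 of the 6 members.

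Alternatives were quantile normalization, centring of arrays, the mean of all probes or single other probes, raising values under 0.25, the more variable genes only, weighting of arrays, a block for the rat number, the compared groups alone, leaving out arrays of low level or high brain score, muscle and brain scores as covariates, and dropping single arrays from groups of up to 5.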

Additional observations from a re-analysis of the deposited data

Results flagged for a closer look

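The values of each member in each group of 4 to 10 arrays gave 60 sets. Of these, 7 had an array set apart from the others by Dixon's criterion, which chance alone meets in about 1 set in 20. The sets share arrays and some hold floor values, so that rate is approximate. Each was the lowest of its group, and values are log2 of the deposited ratio. Mt2A was -2.156 on replicate 12 of 8 mm day 7, against -0.89 to -0.65 on the others. Slc30a1 was -2.085 on replicate 21 of 4 mm day 3, with the others from -0.85 to 0.19, and -6.644 (the floor) on replicate 11 of 8 mm day 21, with the others from -2.04 to 0.54. Slc30a5 was -0.7042 on replicate 15 of 8 mm day 14, with the others from 0.29 to 0.71. Slc39a14 was -0.1573 on replicate 22 of 4 mm day 3, with the others from 0.85 to 1.5, and at the floor of -6.644 on replicate 13 of 8 mm day 10 and on replicate 13 of 8 mm day 14, where the others ran from -1.36 to 1.79 and from -0.66 to 0.54.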

How the results depend on the processing

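The falls of Mt1 and Mt2A and the rise of Mt3 at days 5 to 21 against day 1, and their changes over the days in both sizes, passed in 12 of 12 alternatives and without any single array of the groups of up to 5. Where a result changed, the cause was not tested. Of the tests on single members, 565 results under other settings had the same direction and side of the threshold, 36 lost a call, 22 gained one and 5 reversed.

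Those that reversed were Mt1 at day 14, 8 mm minus 4 mm, with quantile normalization (-0.16), Mt3 at day 21 without the arrays of high brain score (0.34) or with the brain score as a covariate (0.69), and Slc39a14 at day 21 on probes A_44_P375185 (0.45) and A_44_P929840 (0.25). The number of members called for the interaction (0) was 2 with centring, 3 without the arrays of low level and 1 without those of high brain score. At day 7 between sizes (1 member) it was 0 under quantile normalization, the mean of all probes, raising low values, leaving out the less variable genes, fitting the compared groups alone and either other probe of Slc30a5. At day 21 between sizes (1 member) it was 3 with centring, 2 without the arrays of low level, and 0 under those same 5 settings, without the arrays of high brain score, with either covariate and on each other probe of Slc39a14. For day 3 against day 1 (2 members) it was 0 with quantile normalization and 1 with only the more variable genes, the replicate block, the compared groups alone or the muscle covariate. Day 7 against day 1 (3) gave 5 with low values raised, and day 14 (5) gave 3 with the compared groups alone.

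Leaving out single arrays of groups of 3 to 5 gave 0 to 1 members for the interaction (1 without 4 mm day 10 replicate 10), 0 to 1 for size at day 7, 1 to 3 for day 3, 3 to 4 for day 10 and 4 to 5 for day 14 against day 1, and 4 to 5 over the days in 8 mm defects. The others stayed at 0 (size at days 1, 3, 5, 10 and 14 and averaged), 1 (size at day 21), 3 (days 5 and 7 against day 1) or 4 (day 21 against day 1 and over the days in 4 mm defects). Among the more variable genes, 4 members and 7988 genes were tested.

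The sources used here do not say whether arrays with the same rat number and day came from the same animal. The main fit treated them as unpaired. Of 34 such pairs of 8 and 4 mm arrays, 3 had correlated deviations over 0.1 (-0.10 to 0.33). Weak correlation cannot show that the animals differed. A block for the rat number across all days also ties arrays of different days that share a number. With it, Mt1 at day 3 against day 1 was -0.96 (limma adjusted p = 0.057) and Slc30a5 passed over the days in 8 mm defects (0.0419). A block for the rat number within a day, fitted for the comparisons of size only, had a consensus correlation of 0.033.

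The share of all genes called ranged over the settings from 28.1% to 48.8% and from 23.1% to 49.7% over the days in 8 and 4 mm defects, from 0.213% to 2.18% for the interaction, from 0.0125% to 13.2% for size at day 7 and from 0.0375% to 4.46% at day 21. Against day 1 it ranged from 2.04% to 15.6% at day 3 and from 17.6% to 34.6% at day 21. Over all genes the median change from day 1 came to 0.20, 0.34, 0.25, -0.06, -0.06 and -0.18 for days 3 to 21, and with centring -0.12, -0.26, -0.39, -0.45, -0.53 and -0.47. Signal over background is unknown, so a value at the floor gives a bound only.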
